A study of Homo sapiens with 21 samples.

Results

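HMGB1, HMGB2 and HMGB3 are chromatin proteins, and the values here describe where their RNAs were crosslinked to 5 RNA-binding proteins. The members were chosen by gene name: clusters named HMGB1, HMGB2 or HMGB3 in the files of FUBP3, KHSRP, CPSF1, AGO2 and U2AF1. These were 98 of 855812 clusters (41 for HMGB1, 41 for HMGB2 and 16 for HMGB3), and 3 of 18273 named genes. Of the 98 clusters, 87 had the deposited name. The rest, from FUBP3 and KHSRP with RNase T1, were named by their RefSeq positions. The genes were put forward because their FUBP3 and KHSRP reads were known to differ, so those values are given as a description with no test. All cells were Flp-In T-REx 293, an established human kidney-derived line, each carrying a stably integrated transgene for 1 FLAG-HA tagged protein. RNA was labelled with the uridine analog 4-thiouridine, crosslinked at 0.3 J/cm2 of ultraviolet light and recovered with anti-FLAG beads, and a crosslinked base appears as a T-to-C change in the reads (PAR-CLIP). The fluorescent version, fPAR-CLIP, marks the recovered RNA with a fluorescent adapter where PAR-CLIP uses radioactivity. Fluorescent libraries with RNase I were made for FUBP3 and KHSRP at 0.15, 0.5 and 1.5 U/µl, for AGO2 at 0.15 and 1.5 U/µl and for CPSF1 at 0.5 U/µl. Fluorescent U2AF1 libraries were made with RNase A and T1 at 1.5 and 15 U/ml, from cells labelled for 2 h at 250 µM. All other cells were labelled for 8 to 12 h at 100 µM. Radiolabelled libraries were made with RNase T1, for FUBP3 and KHSRP at 0.5 U/µl and for AGO2 at 1 U/µl, the latter as libraries A and B made with a urea gel step and another A and B made without the gel. Per the labels KHSRP cells were lysed in RIPA buffer with sonication, U2AF1 was taken from the chromatin fraction and cytoplasmic proteins were released with NP40. RNase I at 0.1 U/µl was added to the KHSRP and U2AF1 lysates and was optional with NP40, without a record by library. Protein and lysis therefore cannot be told apart.

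The HMGB proteins carry a pair of HMG boxes, folds that bind the minor groove of DNA without regard to sequence and bend it, followed by an acidic tail. HMGB1 also acts outside the cell as an inflammatory signal, HMGB2 is abundant in dividing cells, and HMGB3 is known from embryonic and blood-forming cells. FUBP3 and KHSRP (also called FUBP2) are related KH-domain proteins that bind U-rich and AU-rich RNA. AGO2 carries microRNAs to sites that are usually in 3' UTRs, U2AF1 recognises the AG at the end of introns, and CPSF1 belongs to the machinery that cleaves and polyadenylates pre-mRNA.

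RefSeq (GRCh38.p14) places HMGB1 on the minus strand at chr13:30456704-30617597, HMGB2 on the minus strand at chr4:173331376-173334358 and HMGB3 on the plus strand at chrX:150980507-150990771. The sites below are those that the results return to, read from the deposited clusters, 5′ to 3′ on the RNA strand, in hg38. The first is the HMGB2 3' UTR site found in all 4 radiolabelled AGO2 libraries (chr4:173331906-173331931, placed in hg38 by its sequence), with its ATGCAGG in capitals. These capitals do not mark a match to any of the microRNA seed families searched below. The second is the HMGB2 3' UTR stretch shared by FUBP3 and KHSRP when RNase T1 was used (chr4:173331833-173331853), with an AU-rich ATTTA in capitals. The third is the HMGB2 3' UTR stretch that holds a match to the miR-23 seed (chr4:173331998-173332027), with the match in capitals.
HMGB2 AGO2 site: aaaatacttttaaaaaATGCAGGttg
HMGB2 FUBP3 and KHSRP site: aatgttcctaaatATTTAatg
HMGB2 miR-23 match: attttgctaagAATGTGAattcaagtgcag
The next sites were chosen because they recur between libraries of HMGB1 and HMGB3, with runs of T and GT-containing stretches in capitals, except that the HMGB1 site of KHSRP has GGGA in capitals. They lie at chr13:30460894-30460915 (HMGB1, FUBP3), chr13:30460077-30460099 (HMGB1, KHSRP), chrX:150988572-150988601 (HMGB3, FUBP3) and chrX:150988692-150988721 (HMGB3, KHSRP). The last is the start of the HMGB2 cluster of U2AF1 (chr4:173332985-173333014), with CAG in capitals.
HMGB1 FUBP3 site: taaatacaaTTTTTTTTattag
HMGB1 KHSRP site: ttatctgcttaggagtttaGGGA
HMGB3 FUBP3 site: gcggtagtttttaaacTGTTTGTTTTTAaa
HMGB3 KHSRP site: acgttctgttaTTTTTTTTGTAtgtttaga
HMGB2 U2AF1 site: ctctgttgcttcctttCAGatctgccttct

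The 17 libraries held from 75383 reads in clusters (U2AF1, 15 U/ml) to 2172248 (KHSRP, 0.15 U/µl). The files list clusters of at least 5 reads, or 4 for U2AF1, so a gene without a cluster may still have had fewer reads. Read shares are the reads of a gene over all reads in the clusters of that library, in percent, with 95% Wilson intervals that cover counting error only. Depth differed between doses. At 0.15, 0.5 and 1.5 U/µl FUBP3 had 1683771, 1975646 and 810326 reads, and KHSRP had 2172248, 905433 and 200210. Fluorescent AGO2 had 295889 reads at 0.15 U/µl and 335870 at 1.5 U/µl. The part of depth in the dose comparisons below was not tested. Only the AGO2 gel conditions had more than 1 library, and all other values come without a spread between replicates.

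HMGB2 was the member with the most reads in 16 of 17 libraries, and CPSF1 listed HMGB1 alone. The closest were the 21 reads of HMGB2 and 16 of HMGB1 in U2AF1 at 1.5 U/ml. In FUBP3 it had 1432 reads at 0.15 U/µl, 1359 at 0.5 U/µl and 656 at 1.5 U/µl. These were 0.0850% (0.0808 to 0.0896), 0.0688% (0.0652 to 0.0725) and 0.0810% (0.0750 to 0.0874) of reads. By reads HMGB2 ranked 56th of 11549 genes, 100th of 11883 and 58th of 9961 in these libraries. In KHSRP it had 511, 158 and 86 reads at the same doses. These were 0.0235% (0.0216 to 0.0257), 0.0175% (0.0149 to 0.0204) and 0.0430% (0.0348 to 0.0530), and HMGB2 ranked 976th of 10450, 1304th of 8855 and 358th of 6859.

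**Figure D1:**
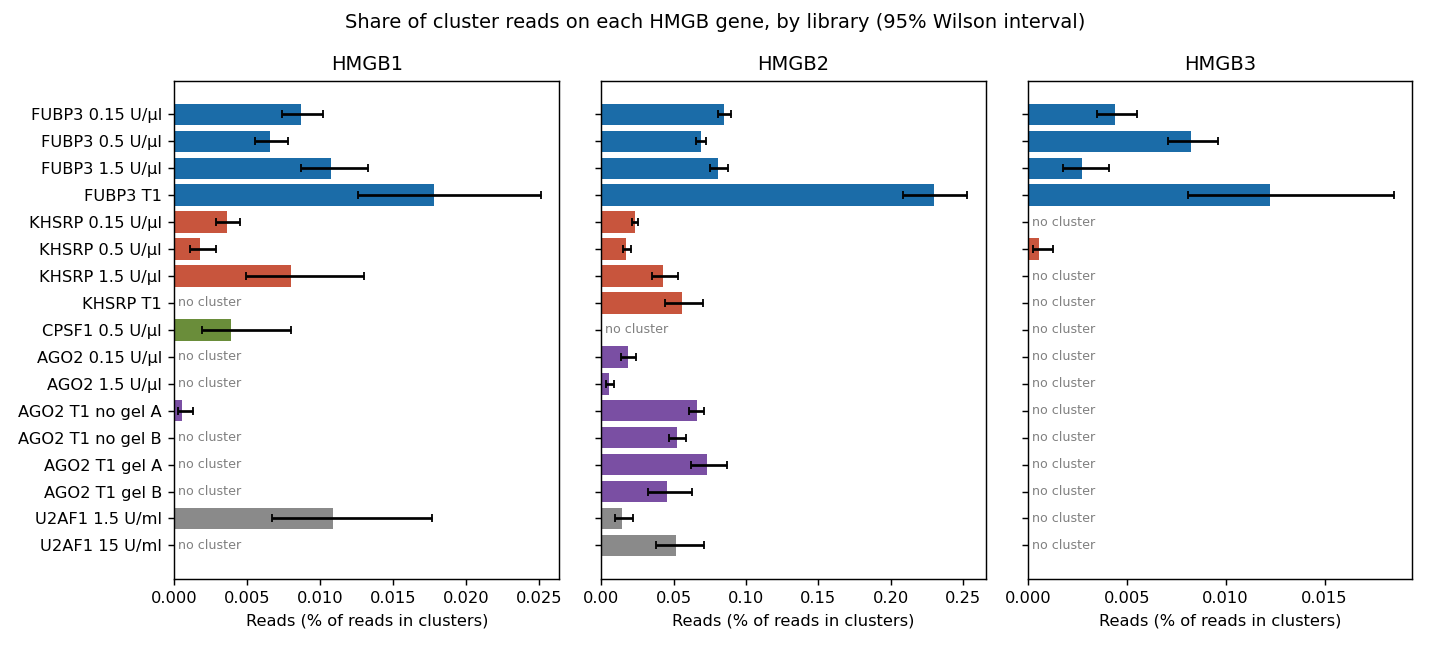
Reads of HMGB1, HMGB2 and HMGB3 as a percentage of all reads in clusters, for each of the 17 libraries, each panel with its own scale from 0 and with 95% Wilson intervals as bars. HMGB2 stands at 0.230% in FUBP3 with RNase T1 and at 0.0175% to 0.0556% in KHSRP, and HMGB3 has no cluster in 12 of the 17 libraries.

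The HMGB2 share in FUBP3 over KHSRP was 3.62-fold at 0.15 U/µl (counting interval 3.27 to 4.00), 3.94-fold at 0.5 U/µl (3.34 to 4.65) and 1.88-fold at 1.5 U/µl (1.5 to 2.4). When 50 or more reads were required in all 6 of these libraries, 789 genes remained, of which 13.6% were higher in FUBP3 at all doses, and HMGB2 was 5th by its mean log2 ratio of 1.58. The median of those 789 genes was -0.64. This contrast chose the members, so nothing is read from the rank. When 10 or more reads were required, 967 of 3563 genes (27.1%) were higher in FUBP3 at all doses, and HMGB2 was 188th. The log2 ratio at 1.5 U/µl, 0.91, depended on what was counted. With clusters of at least 10 reads only, and totals taken over the same clusters, it was -0.071. Counting distinct sequences in place of reads gave 0.31. Clusters of at least 3 distinct sequences gave 1.36, and median-of-ratios scaling gave 1.48.

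The RNase T1 libraries, made with a radioactive label, hold the same contrast of proteins that chose the members, with 1 library each, so their values are a description too. HMGB2 had 413 reads in FUBP3, or 0.230% (0.209 to 0.253), and 70 reads in KHSRP, or 0.0556% (0.0440 to 0.0702). FUBP3 over KHSRP was 4.13-fold (3.21 to 5.32). Of 1305 genes that reached 10 reads in both, 279 (21.4%) were at least 2-fold higher in FUBP3, and HMGB2 ranked 106th. HMGB1 had 32 reads and HMGB3 22 reads in FUBP3, while KHSRP listed no cluster for either.

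**Figure D2:**
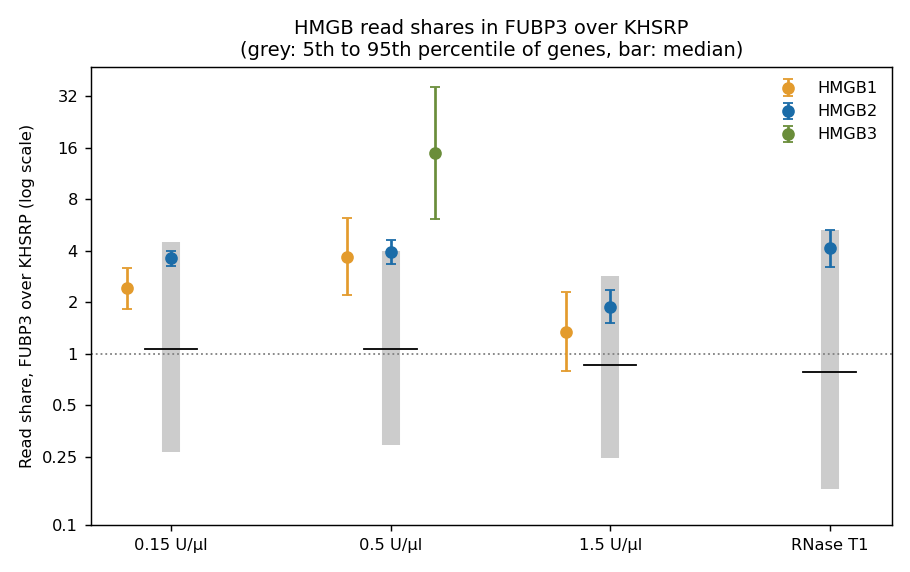
Read share in FUBP3 over that in KHSRP on a log axis, for each member with reads in both libraries, with counting intervals; grey bars span the 5th to 95th percentile of genes with at least 10 reads in each library and black bars their median. HMGB2 lies at 3.62, 3.94, 1.88 and 4.13, above the medians of 1.07, 1.06, 0.865 and 0.788 and inside each grey bar.

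The HMGB2 reads of FUBP3 formed a single uninterrupted cluster at the lower doses. Positions are counted from the first base after the stop codon, chr4:173332079, and the RefSeq gene end lies at position 704. At 0.15 U/µl the FUBP3 cluster was 420 nt long and ran from 2 bases inside the stop codon to position 418, and at 0.5 U/µl it was 431 nt long and ran from position 1 to 431. They were the 11th longest of 161821 and the 11th longest of 180358 clusters, against medians of 30 and 31 nt. KHSRP at 0.15 U/µl had a 416-nt cluster on positions 16 to 431, the 52nd longest of 178339, with 481 reads. T-to-C changes were recorded at 88 of 174 T positions in FUBP3 at 0.15 U/µl, at 81 of 177 at 0.5 U/µl and at 86 of 171 in KHSRP. The share of T positions with a recorded change was thus 50.6%, 45.8% and 50.3%, with 481 reads in KHSRP against 1432 in FUBP3 at 0.15 U/µl. In distinct sequences the 2 clusters were closer, with 280 in KHSRP and 334 in FUBP3.

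At higher doses and with RNase T1 the same 3' UTR broke into shorter clusters. FUBP3 at 1.5 U/µl had 4 clusters, of which the one on positions 165 to 353 held 445 of 656 reads. Their longer inner gaps were at positions 46 to 85 and 151 to 164, and together they covered 353 of the 431 positions. KHSRP covered 174 positions at 0.5 U/µl and 122 at 1.5 U/µl. With RNase T1, FUBP3 had 213 reads on 54 nt at positions 221 to 274, 178 reads on positions 291 to 430 and 22 reads on positions 149 to 170. The first of these had 3.94 reads per nt and changes at 24 of 28 T positions. KHSRP with RNase T1 had 21 reads on positions 227 to 247, inside that cluster, 40 reads on positions 335 to 409 and 9 reads on positions 100 to 122. The site printed above with the ATTTA is this shared stretch of positions 227 to 247.

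**Figure D3:**
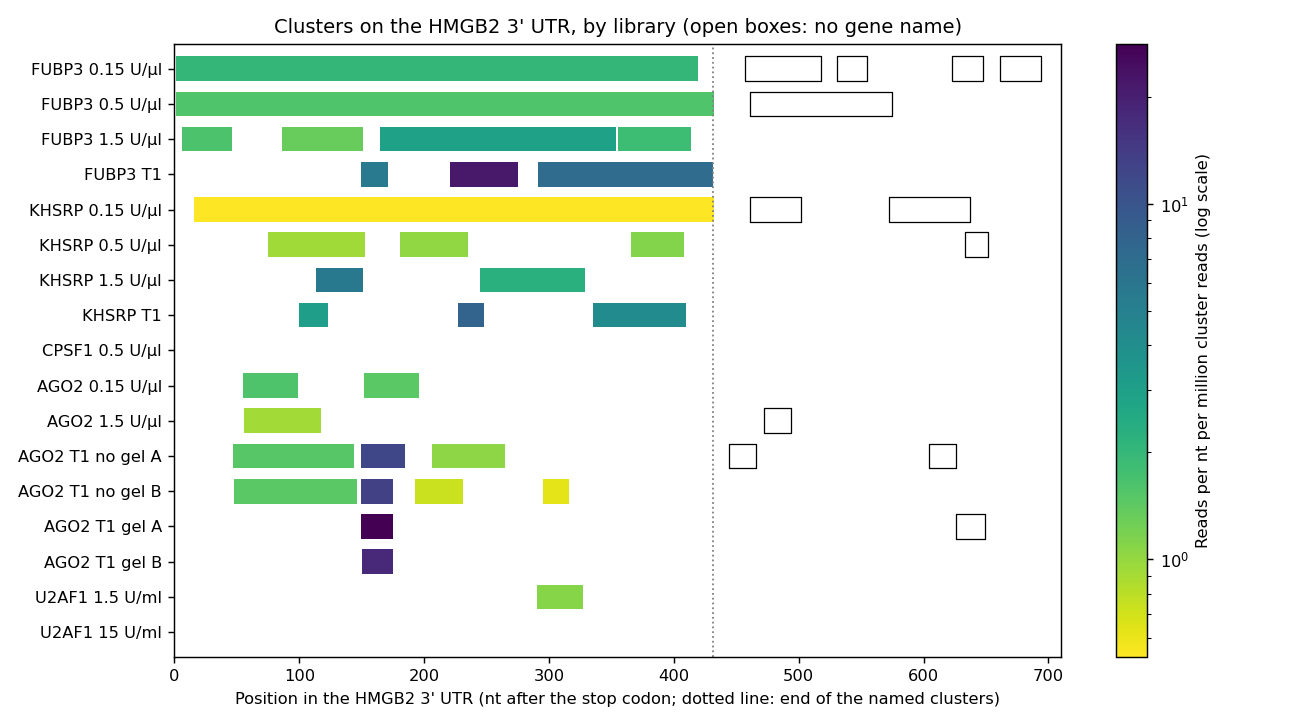
Clusters on the HMGB2 3' UTR, one row per library, by position after the stop codon; colour gives read density (reads per nt, scaled to the cluster reads of the library) on a log scale, and open boxes are clusters on the same strand with no gene name. FUBP3 and KHSRP at 0.15 U/µl cover nearly all of positions 1 to 431, while the 4 radiolabelled AGO2 libraries share a dense cluster at positions 149 to 174.

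The 431 nt of 3' UTR, a stretch set by the FUBP3 clusters, were about as U-rich as other 3' UTR clusters. The 433 nt of the joined clusters held 177 T (40.9%). All 3' UTR clusters held 39.8% in FUBP3 at 0.5 U/µl. Over the RNase I libraries of FUBP3 and KHSRP they held 37.2% (KHSRP at 1.5 U/µl) to 40.7% (FUBP3 at 1.5 U/µl). Motifs were searched on the RNA strand in 14 consecutive windows of 30 nt and in the central 30 nt of 3' UTR clusters of FUBP3 (21337 windows) and KHSRP (4841 windows) at 0.5 U/µl. TTTT was in 8 of 14 windows (57.1%), against 43.6% and 39%. TGTA was in 6 of 14 (42.9%), against 31.2% and 43.5%, and TATA in 3 of 14 (21.4%), against 20.6% and 31.0%. TGTATAT, which contains both TGTA and TATA, and GGGT were each in 1 window, GTCC was in none, and the only ATTTA spanned a window edge. No test of these shares was made.

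AGO2 was crosslinked to parts of the same 3' UTR. The radiolabelled AGO2 libraries A and B covered 192 and 183 of the 431 positions without the gel and 26 and 25 with it. They also differed in depth, with 929424 and 608223 reads in clusters without the gel and 183250 and 77572 with it. The part of depth in the positions covered, and in the clusters listed below, was not tested. With the same enzyme, RNase T1, FUBP3 covered 216 positions and KHSRP 119. In the radiolabelled libraries without the gel, HMGB2 had 612 reads in A and 319 in B, or 0.0658% and 0.0524%. With the gel it had 134 reads in A and 35 in B, or 0.0731% and 0.0451%. In all 4 libraries the cluster with the most HMGB2 reads lay on the AGO2 site printed above, positions 149 to 174, with 407, 207, 134 and 35 reads. It held 66.5% and 64.9% of HMGB2 reads without the gel and all of them with it. In library A without the gel the cluster extended 10 nt further, to position 184, and in library B with the gel it began at position 150. The deposited mode position was 166 in all 4, and 76.5% to 91.2% of its reads had a T-to-C change. Among 3' UTR clusters it ranked 22nd of 16937, 52nd of 10596, 8th of 3418 and 45th of 1238 by reads. The libraries without the gel also had clusters around it, on positions 47 to 143 (137 reads in A) and 48 to 145 (87 reads in B).

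The fluorescent AGO2 libraries had lower HMGB2 shares than the radiolabelled ones, while the enzyme and the label differed together between them. At 0.15 U/µl there were 54 reads, 0.0183% (0.0140 to 0.0238), in clusters on positions 152 to 195 (19 reads), positions 55 to 98 (21 reads) and in coding sequence (14 reads). At 1.5 U/µl there were 19 reads, 0.00566% (0.00362 to 0.00884), on positions 56 to 116. The cluster on positions 152 to 195 overlapped the radiolabelled site and had its mode at the same position, 166. AGO2 clusters lay partly where FUBP3 at 1.5 U/µl had none. FUBP3 left 18.1% of the 431 positions uncovered at that dose. These positions included 44 of the 88 positions covered by AGO2 at 0.15 U/µl and 30 of 61 at 1.5 U/µl. In the radiolabelled AGO2 libraries they included 53 of 192 (27.6%) and 52 of 183 (28.4%) without the gel, and 14 of 26 and 14 of 25 with it. The gaps belong to that 1 library: FUBP3 with RNase T1 covered 32 of these 78 positions. FUBP3 at the lower doses and KHSRP at 0.15 U/µl covered all 26 positions of the radiolabelled AGO2 site. FUBP3 covered 22 of them with RNase T1 and 12 at 1.5 U/µl. KHSRP covered 4 at 0.5 U/µl, 2 at 1.5 U/µl and 0 with RNase T1. No test of this overlap was made.

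Seed matches were searched as the 7 nt that pair with bases 2 to 8 of 11 microRNA families. None of the 11 matched the AGO2 site on positions 149 to 174. Among the other mature microRNAs in the RefSeq table, hsa-miR-20a-3p, hsa-miR-548n and hsa-miR-548l did. Clusters named MIR20A had 12301 and 19387 reads in AGO2 at 0.15 and 1.5 U/µl and none in the 4 radiolabelled libraries, and the name does not separate the 2 arms of the hairpin. MIR548N had 8 reads in library A without the gel, and MIR548L had no cluster in the 6 AGO2 libraries. These counts are by deposited name, so reads on the same hairpins listed under another name, such as a host gene, are not in them. A count of none is thus not evidence that the microRNA was absent. The match to miR-23 (AATGTGA) lay at positions 64 to 70 and was in 4 of the 6 AGO2 libraries, in each case in the cluster upstream of that site. Of all AGO2 3' UTR clusters, 0.313% to 0.745% held this match, depending on the library. A match to miR-181 (TGAATGT) at positions 225 to 231 was in a cluster of library A without the gel. No other of the 11 families matched an AGO2 cluster of a member. The mature sequence from RefSeq (GRCh38.p14) follows, with its seed in capitals.
hsa-miR-23a-3p: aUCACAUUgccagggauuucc
Clusters holding the first 16 nt of this arm had 3786 and 2907 reads without the gel and 756 and 549 reads with it, or 0.407% to 0.708% of reads. The fluorescent AGO2 libraries listed none. The sequence is shared with miR-23b-3p at these bases, so the 2 cannot be told apart.

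The gel comparison had replicates and was not used to choose the members. In edgeR's quasi-likelihood test of 1121 genes, the HMGB2 log2 change with the gel was 0.04 ± 0.35 (SE, 2 libraries against 2), with a Benjamini-Hochberg adjusted p of 0.970. The difference was smaller than the spread between libraries of a group. 3 of 1121 genes (0.268%) were called at an adjusted p under 0.05, of which MIR320A and MIR17HG were higher and EXOC8 lower with the gel. These names fall outside the rule for named genes and were chosen after their values were seen. Without 1 library in turn the calls numbered 13 and 14 without A or B of the libraries without the gel, and 8 and 0 without A or B of those with it. HMGB2 was not called in any of these fits, and its log2 change ranged from -0.59 to 0.30 over them. In each of these fits 1 condition has a single library, which is assumed to vary like the other condition. The summed share of HMGB reads was 0.0594% ± 0.0099 (SD, n = 2) without the gel and 0.0591% ± 0.0198 (SD, n = 2) with it, with a p of 1.0 in a two-sided exact permutation test, which at 2 against 2 cannot go below 0.333. The labels do not say that the libraries came from separate cultures, so the p-values measure only spread between libraries, which may be technical. HMGB1 and HMGB3 were not tested, because HMGB1 had 5 intronic reads in a single library and HMGB3 had no cluster.

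U2AF1 reads on HMGB2 lay mostly outside the 3' UTR. At 1.5 U/ml HMGB2 had 21 reads, 0.0142% (0.00932 to 0.0218): 15 in a 42-nt cluster labelled CDS and 6 in a cluster labelled exon, on positions 290 to 326 of the 3' UTR. The 42-nt cluster begins with the U2AF1 site printed above, a pyrimidine-rich run followed by CAG. At 15 U/ml HMGB2 had 39 reads, 0.0517% (0.0379 to 0.0707), in clusters of 18, 15 and 6 reads labelled CDS, CDS and exon. The share was 3.63-fold higher at 15 U/ml (2.14 to 6.17), and 131 of 509 genes (25.7%) that reached 10 reads in both were at least 2-fold higher at that dose. The 18-read cluster began 7 nt upstream of the end of the 42-nt cluster at the lower dose, so the clusters overlap. HMGB1 had 16 reads in a 3' UTR cluster at 1.5 U/ml and no cluster at 15 U/ml. CPSF1 listed no cluster on HMGB2 or HMGB3 and a single HMGB1 cluster, with 7 reads of 1 distinct sequence, labelled as a lincRNA.

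HMGB1 had fewer reads than HMGB2 in each FUBP3 and KHSRP library. In FUBP3 it had 146, 129 and 87 reads at 0.15, 0.5 and 1.5 U/µl, in 9, 7 and 7 clusters, or 0.00867%, 0.00653% and 0.0107%. In KHSRP it had 78, 16 and 16 reads in 10, 1 and 1 clusters, or 0.00359%, 0.00177% and 0.00799%. FUBP3 over KHSRP was 2.41-fold (1.83 to 3.18), 3.70-fold (2.2 to 6.2) and 1.34-fold (0.788 to 2.29), so at the highest dose the interval includes 1. Clusters of HMGB1 merged into 27 sites over the hg38 libraries, of which 21 were in 1 library and 3 in at least 3.

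The 3 recurrent HMGB1 sites were all in the 3' UTR. The site at chr13:30460878-30460917, with the run of 8 T, had 14, 33, 29 and 20 reads in FUBP3 at 0.15, 0.5 and 1.5 U/µl and with RNase T1, and no KHSRP cluster. The site at chr13:30460067-30460134 had 35, 10 and 5 reads in FUBP3 at 0.15 and 0.5 U/µl and with RNase T1, and 16 and 16 in KHSRP at 0.5 and 1.5 U/µl. It holds the HMGB1 site of KHSRP printed above, and at both doses it held all KHSRP reads on HMGB1. The site at chr13:30459925-30460015 had 45 and 51 reads in FUBP3 at 0.15 and 0.5 U/µl and 6 in KHSRP at 0.15 U/µl. FUBP3 was thus in at least 2 libraries at each of these 3 sites, and KHSRP was in none, 2 and 1 of its libraries.

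HMGB3, on the X chromosome, was listed in FUBP3 at every dose and nearly absent from KHSRP. It had 74 reads (0.00439%, 0.00350 to 0.00552) at 0.15 U/µl, 163 reads (0.00825%, 0.00708 to 0.00962) at 0.5 U/µl and 22 reads (0.00271%, 0.00179 to 0.00411) at 1.5 U/µl in FUBP3. KHSRP had a single cluster of 5 reads, at 0.5 U/µl, the smallest that the files list, which gave a FUBP3 over KHSRP ratio of 14.9-fold (6.14 to 36.4). AGO2, CPSF1 and U2AF1 listed no HMGB3 cluster. HMGB3 clusters merged into 10 sites, of which 2 were in at least 3 libraries. The site at chrX:150988566-150988606 had 34, 23 and 12 reads in FUBP3 at 0.15, 0.5 and 1.5 U/µl, and its inner 30 nt are the HMGB3 site of FUBP3 printed above. The site at chrX:150988682-150988721 had 12 and 13 reads in FUBP3 at 0.15 and 0.5 U/µl and the 5 reads of KHSRP. The cluster with the most HMGB3 reads, 72 in FUBP3 at 0.5 U/µl on chrX:150988232-150988283, overlapped a cluster of 9 reads in the RNase T1 library only. At 1.5 U/µl each of the 2 HMGB3 clusters came from 1 distinct sequence.

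**Figure D4:**
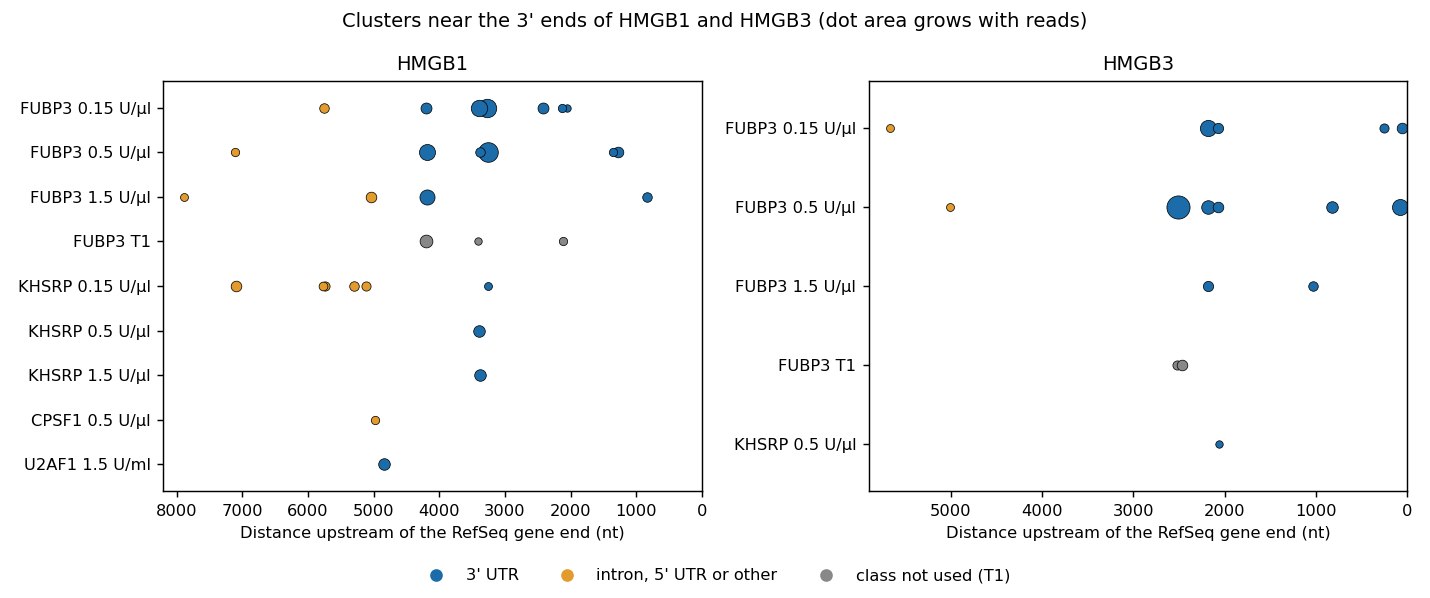
Clusters of HMGB1 (left) and HMGB3 (right) by distance upstream of the RefSeq gene end, one row per library with a cluster; dot area grows with reads, and colour gives the deposited class, which is not used for the RNase T1 libraries. The recurrent 3' UTR sites stack between 3221 and 4174 nt (HMGB1) and between 2050 and 2165 nt (HMGB3) from the gene end; HMGB1 clusters farther upstream are outside the panel.

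The members differed in how much of their signal was in the 3' UTR. A cluster labelled stop codon was counted with the 3' UTR, because the only one was the 420-nt FUBP3 cluster on HMGB2, of which 2 nt lie in the stop codon. With that rule all HMGB2 reads of FUBP3 at all 3 doses were in the 3' UTR, and so were 94.1% (91.7 to 95.9), 100% (97.6 to 100) and 94.2% (87.1 to 97.5) of those of KHSRP. By the deposited 3' UTR class alone the FUBP3 share at 0.15 U/µl was 0%. The remaining KHSRP reads, 30 at 0.15 U/µl and 5 at 1.5 U/µl, were intronic. Over genes with at least 50 reads, the median 3' UTR share was 22.8% to 31.7% in the FUBP3 libraries and 0% to 6.67% in the KHSRP libraries.

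HMGB1 reads had a 3' UTR share of 82.2% (75.2 to 87.5), 88.4% (81.7 to 92.8) and 44.8% (34.8 to 55.3) in FUBP3 at 0.15, 0.5 and 1.5 U/µl. In KHSRP the share was 7.69% (3.57 to 15.8) at 0.15 U/µl, where 59 of 78 reads were intronic and 13 in a 5' UTR cluster. At 0.5 and 1.5 U/µl all 16 reads of each library were in the single 3' UTR cluster. HMGB3 reads of FUBP3 were 91.9%, 96.3% and 100% in the 3' UTR, the rest being 1 intronic cluster of 6 reads at each of the 2 lower doses. In the RNase T1 libraries, whose deposited classes were not used here, all 3 HMGB2 clusters of each protein lay between positions 100 and 430 of the 3' UTR.

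**Figure D5:**
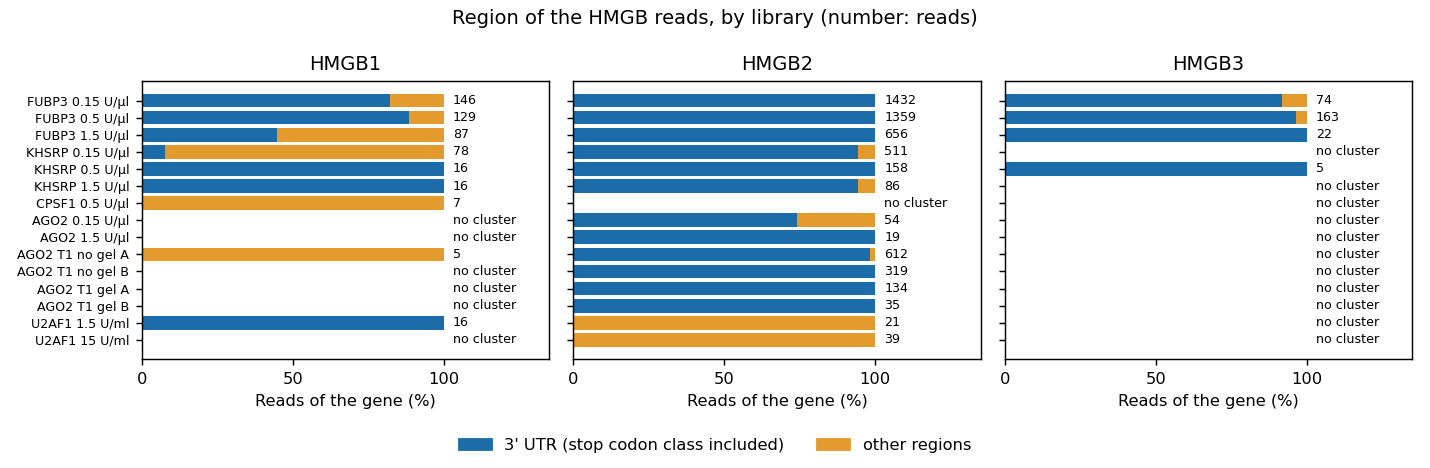
Share of the reads of each member that lay in the 3' UTR (blue, stop codon class included) or in other regions (orange), for the 15 libraries with usable classes; the number beside each bar is the gene's reads. HMGB2 is almost wholly blue in FUBP3, KHSRP and AGO2, except for 14 of 54 coding reads in AGO2 at 0.15 U/µl. HMGB2 is wholly orange in U2AF1, where the deposited classes are CDS and exon. By position, the exon cluster of 6 reads in U2AF1 at 1.5 U/ml lies in the 3' UTR, though it is drawn as orange. HMGB1 is mostly orange in KHSRP at 0.15 U/µl.

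The HMGB2 share did not move in 1 direction with RNase I dose: in FUBP3 and in KHSRP it was lowest at 0.5 U/µl, at the shares given above. For HMGB2, FUBP3 at 0.15 over 1.5 U/µl gave 1.05-fold (0.96 to 1.2). KHSRP was 1.83-fold higher at 1.5 U/µl (1.45 to 2.29), below the 2-fold that 1241 of 3997 genes (31.0%) passed in that direction. AGO2 was 3.23-fold higher at 0.15 U/µl (1.91 to 5.44), where 71 of 485 genes (14.6%) were at least 2-fold higher. For HMGB1, KHSRP was 2.23-fold higher at 1.5 U/µl (1.30 to 3.81) and FUBP3 1.24-fold higher (0.95 to 1.6), the latter interval including 1. For HMGB3, FUBP3 was 1.62-fold higher at 0.15 U/µl (1.01 to 2.61). That interval treats reads as independent, while the 22 reads at 1.5 U/µl came from 2 distinct sequences and the 74 at 0.15 U/µl from 16. It may thus be too narrow, and a difference from 1 is not read from it. The FUBP3 value changed sign with the cluster filter: with clusters of at least 3 distinct sequences only, the HMGB2 log2 ratio of 0.15 over 1.5 U/µl was -0.81 in place of 0.07. In KHSRP the same ratio, -0.87, was -2.13 with clusters of at least 10 reads, and that of HMGB1, -1.15, was -4.25.

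With RNase T1 the HMGB2 share was higher than in the fluorescent libraries of the same dose in U/µl, by 3.08-fold in FUBP3 (2.76 to 3.44) and by 3.07-fold in KHSRP (2.32 to 4.06), with genes taken from RefSeq positions in all 4 libraries. Of the genes that reached 10 reads in both, 599 of 2448 (24.5%) in FUBP3 and 368 of 1813 (20.3%) in KHSRP were at least 2-fold higher with RNase T1. The enzyme, the label and the depth differed together between these libraries. HMGB1 was 2.72-fold (1.85 to 4.01) and HMGB3 1.48-fold (0.95 to 2.3) higher with RNase T1 in FUBP3.

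HMGB2 alone reached 50 reads in all 6 fluorescent FUBP3 and KHSRP libraries, so likeness of pattern was measured for it alone. The 5 genes nearest to it, by the root mean square difference of log2 read shares after centring each gene on its own mean, were CELF1 (0.19), CCNT1 (0.23), REST (0.30), TFDP1 (0.31) and SGPP1 (0.32). The median over the 788 other genes was 1.22. CELF1 encodes an RNA-binding protein of GU-rich elements, CCNT1 the cyclin of the elongation factor P-TEFb, REST a repressor of neuronal genes and TFDP1 a partner of E2F factors. The CELF1 share of reads was 0.0413%, 0.0443% and 0.0484% in FUBP3 at 0.15, 0.5 and 1.5 U/µl and 0.0168%, 0.00928% and 0.0285% in KHSRP, lower than the HMGB2 share in each of the 6 libraries.

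Other genes of HMG proteins were compared between FUBP3 and KHSRP in the same way. Of 17 such genes, 15 had a FUBP3 cluster and 14 a KHSRP cluster at 0.5 U/µl, 8 reached 10 reads in all 6 libraries, and none reached 50. Of these 8, 2 were higher in FUBP3 at all doses, where 27.1% of all 3563 genes were, and 2 were higher in KHSRP at all doses, where 29.6% were. Both counts are near that background. Those 4 are named here after their values were seen. TFAM, the HMG-box protein that packages mitochondrial DNA, had log2 ratios of 2.24, 2.32 and 2.26, and the architectural factor HMGA2 had 0.73, 1.17 and 0.14. The nucleosome-binding HMGN1 had -1.43, -1.21 and -0.06, and HMGN2 had -2.62, -2.64 and -3.07. The median of the 8 was 0.10, near the 0.02 of all 3563 genes. Of 5 genes of the SET complex, in which HMGB2 is a member, SET and ANP32A passed the same filter. SET had log2 ratios of 0.17, 1.12 and 0.45, and ANP32A had 2.06, 2.98 and -0.01. HMGB4, the testis member of the family, had no cluster in any of the 17 libraries.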

How the data were processed

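Each file listed clusters called in 1 library. Per the labels, the submitters' processing notes name bcl2fastq 2.20.0, cutadapt 1.15 and hg38. No source used here gives the aligner, the caller of the clusters or the annotation. The deposited values were raw counts of reads, of distinct sequences and of T positions with a change, and a deposited fraction of converted reads. In the U2AF1 files the deposited crosslinked reads were an estimated count and were not used here. The 4 samples without a file were not analysed here.

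The 4 AGO2 gel libraries had positions of another build, so their HMGB2 clusters were placed by sequence: 9 of 10 were found in the hg38 stretch, all with 1 shift. All 22 clusters of hg38 libraries inside the stretch had the same bases there. For FUBP3 and KHSRP with RNase T1, 38.6% and 38.0% of clusters had a deposited name; genes were taken from RefSeq spans (GRCh38.p14) on the strand seen in at least 90% of named clusters of the other libraries. Elsewhere genes had their deposited exact name. Clusters sharing 1 nt or more of a strand were merged into sites.

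Reads were summed per gene. Genes with at least 10 reads over the 4 gel libraries, and listed in all of them, entered edgeR 4.0.16 (quasi-likelihood, TMM), with DESeq2 1.42.0 as the alternative, in R 4.3.3, after a check on simulated counts. The labels do not say that the letters A and B pair the gel libraries, so they were not paired in the main fit. The correlation of deviations was -0.01, which with 2 libraries per group cannot decide on pairing. Counting intervals are at 95% and treat reads as independent, so they may be too narrow where several reads share 1 distinct sequence. Python 3.11.15, numpy 2.4.6, pandas 2.3.3, scipy 1.17.1 and matplotlib 3.10.9 were used. The rule for named genes was the members, the 5 genes nearest to each in pattern, related genes reaching 50 reads in all 6 libraries, and, per member, the leading clusters and 3' UTR sites in at least 3 libraries. Members and lists were chosen with earlier results of these data known. The alternatives were other scaling, distinct sequences, cluster filters, gene names by RefSeq span, overlap rules, another tool and left-out libraries. Region from an annotation could not be computed, since no exon annotation was used here.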

Additional observations from a re-analysis of the deposited data

How the results depend on the processing

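Of 35 alternatives of the FUBP3 over KHSRP log2 ratios 34 were above 0. The other was HMGB2 at 1.5 U/µl with clusters of at least 10 reads (-0.071). These alternatives are not independent of each other. Those with merged names repeat the main values, and the HMGB2 mean repeats the 3 doses that are also counted singly. Since this contrast chose the members, the count is a description and not support for it. The HMGB2 mean over doses, 1.58, was 2.21 with median-of-ratios scaling, 1.32 with distinct sequences, 1.35 with clusters of at least 10 reads and 2.36 with at least 3 distinct sequences; the HMGB1 mean, 1.19, was 1.83 with that scaling and 1.89 with 3' UTR clusters only, an alternative added after seeing the data. For 0.15 over 1.5 U/µl, HMGB2 in KHSRP (-0.87) was -1.29 with distinct sequences, -2.13 with clusters of at least 10 reads and -2.37 with at least 3 distinct sequences; in FUBP3 (0.07) it was -0.81 with the last. HMGB1 in FUBP3 (-0.31) was 0.20 with distinct sequences. The cause was not tested. The mean 3' UTR share of HMGB2 in FUBP3, 100%, was 66.7% by the deposited class alone, also added after seeing the data; in KHSRP, 96.1%, it was 63.9% by clusters and 62.8% without the largest cluster. For HMGB1 in FUBP3, 71.8%, it was 55.6% by clusters, 81.2% with clusters of at least 10 reads and 57.4% without the largest. Leaving out the largest cluster left none for HMGB2 in FUBP3 at the lower doses and for HMGB1 in KHSRP at the higher doses, and merged names held no member. In the gel comparison edgeR called 3 genes; it called 53 with no filter beyond 1 read and 5 with distinct sequences, and 0 to 14 without 1 library. The replicate block called 3 genes and gave HMGB2 a log2 change of -0.023, against 0.04; no filter gave -0.15, distinct sequences -0.12 and leaving out a library -0.59 to 0.30, none called (adjusted p 0.435 to 0.991). Regions from an annotation at the cluster midpoint were not run. Of the 11 3' UTR clusters of FUBP3 at 0.5 U/µl, 7 overlapped a cluster at 0.15 U/µl, and 5 with 50% overlap. HMGB1 and HMGB3 rest on single libraries and few reads, so absence of a cluster there is limited by depth and by the minimum of reads per cluster.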

Other observations

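Clusters with no gene name continued past the named HMGB2 clusters. The joined clusters of FUBP3 ended at position 431, and an AATAAA, the polyadenylation hexamer, began at position 361. Between position 431 and the RefSeq gene end at 704, FUBP3 had 101 reads at 0.15 U/µl and 114 at 0.5 U/µl, KHSRP had 48 and 6, AGO2 at 1.5 U/µl had 6, and the radiolabelled AGO2 libraries A had 31 without the gel and 5 with it. FUBP3 at 1.5 U/µl and with RNase T1 listed none there. Within 3000 nt past the RefSeq gene end on the same strand, FUBP3 had 100, 181 and 20 reads at 0.15, 0.5 and 1.5 U/µl and 13 with RNase T1, and KHSRP had 26, 27 and 5 at the 3 doses. For FUBP3 at 0.5 U/µl, 169 of these reads, in 7 clusters, had no gene name, equal to 12.4% of the named HMGB2 reads. The background was 5692 genes with at least 50 reads in that library, a RefSeq position and a strand learned from named clusters. Of these, 16.1% had such unnamed reads in the same window and 2.46% had at least as large a share as HMGB2. HMGB1 had 10 reads past its end in FUBP3 at 0.15 U/µl, and HMGB3 had none in the 13 libraries with hg38 positions, the only ones searched there.

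Names close to a member's were few: HMGB3P22 (9 reads, FUBP3 at 0.15 U/µl), HMGB1P20 (6 reads, CPSF1) and HMGB2P1 (5 reads, U2AF1 at 15 U/ml). The HMGB2P1 cluster shared 31 of its 32 nt with an HMGB2 cluster of the same library, so its reads cannot be placed on the pseudogene rather than on HMGB2. The other 2 shared at most 9 nt with any cluster of a member.

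Reads per distinct sequence on HMGB2 were 4.29, 4.98 and 6.25 in FUBP3 at 0.15, 0.5 and 1.5 U/µl and 1.76, 2.08 and 2.32 in KHSRP. In the whole libraries they were 5.23, 5.70 and 7.02, and 2.24, 2.59 and 3.97. With RNase T1 the HMGB2 values were 1.19 in FUBP3 and 1.23 in KHSRP.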
